A study of Mus musculus with 8 samples.

Results

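The genes described here make fatty acids and build them into triglyceride, in the livers of newborn mice without glycerol kinase and of their wild-type littermates. They are 33 genes chosen by symbol, among the 18193 genes that the array's annotation names. Each was read through 1 probe set, a group of short probes for 1 transcript region, namely the one with the highest mean signal over the 8 arrays. A probe set was paired with 32 of the 33, and Acsl1 was not analysed here. Of the 32, 28 reached a signal of 200 on at least 4 arrays and were tested, and Acacb, Lpin3, Mogat1 and Cidec did not reach it.

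All 8 pups are labelled inbred C57BL/6J males at day of life 3, the age at which, by the series' design, the knockouts are symptomatic with low blood glucose and acidosis. The 4 wild-type animals are age-matched littermates, and the 4 knockouts carry a targeted disruption of the gene for glycerol kinase, the enzyme that makes glycerol 3-phosphate from glycerol. RNA from the whole liver of each pup went on a separate array of the Affymetrix Mouse 430 2.0 type, with no pooling and no treatment given in the labels. No probe set was paired with the disrupted gene itself, so the labels of the groups were not checked through it.

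Liver makes fatty acids in the cytosol from acetyl-CoA, with NADPH as reductant, and then desaturates and elongates them. An acyl-CoA synthetase activates each fatty acid before use. Triglyceride is assembled on glycerol 3-phosphate: 1 acyl chain is added by a glycerol 3-phosphate acyltransferase and the next by an acylglycerophosphate acyltransferase, the phosphate is removed by a lipin, and a diacylglycerol acyltransferase adds the last chain. Glycerol 3-phosphate comes from glycerol through glycerol kinase or from glycolysis through a dehydrogenase. A separate route starts from monoacylglycerol and needs no glycerol 3-phosphate. In suckling pups the diet is rich in milk fat.

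The arrays had features that the groups do not account for. Xist and Eif2s3y, which mark females and males, stood at 10506 and 1.3 on the array labelled wild type 4, against 196 to 396 and 685 to 1164 on the other 7, so that array goes against its male label. Replicates 1 and 2 of both groups parted from replicates 3 and 4 in the 3′ probe set of the spiked BioB control (141 to 167 against 258 to 338) and in the transferrin receptor's ratio of 3′ to 5′ signal (6.50 to 6.72 against 4.21 to 4.83). They are called the first and the second array set below. The 3′/5′ ratio of pyruvate carboxylase, a sign of RNA quality, was 7.03 on knockout 1 and 4.93 on knockout 2, against 2.06 to 3.46 on the other 6 arrays. That of actin was 1.74 on knockout 1 and 1.21 to 1.32 on the other 7, with knockout 2 at 1.27. That of Gapdh was 0.765 to 0.896 on all 8. Markers fitted the labelled tissue: albumin (Alb) stood between 19537 and 26756, and all 8 hepatocyte markers with a probe set passed the signal minimum. Of 5 adipocyte markers with a probe set, Adipoq, Lep and Ucp1 stayed between 2.4 and 41.9, while Retn (142 to 425) and Fabp4 (1964 to 4250) passed the minimum, and the summed signal of the 5 overlapped between the groups.

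No gene of the 28 passed the test between knockout and wild type: 0 were called higher and 0 lower (limma, Benjamini-Hochberg adjusted p under 0.05 over 20395 probe sets, of which 0.299% were called), and their adjusted p ran from 0.133 to 0.985. Before adjustment, 5 had a p under 0.05 with a higher mean in the knockout (Lpin1, Acsl4, Me1, Gpam and Elovl1) and 2 with a lower one (Elovl5 and Pnpla3). Among all probe sets tested the same rule took 14.4%, of which 7.12% were higher and 7.32% lower. The groups did not overlap for 2 genes that were higher in the knockout (Acsl4 and Gpam) and 2 that were lower (Elovl2 and Elovl5), where 4.47% and 4.85% of all probe sets did so. The median difference of the 28 genes, knockout minus wild type on the scale of log2(signal + 16), was 0.03, with 16 above 0, and that of all probe sets -0.03, with 45.8% above 0. Without the array labelled wild type 4, again 0 of the 28 were called higher and 0 lower. Of 16 genes with 2 or more tested probe sets, 14 had the same sign in all of them, the exceptions being Agpat3 and Scd2. All log2 differences below are on this scale, each with its standard error from limma. In whole liver RNA, fewer cells of a type and less RNA per cell cannot be told apart.

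**Figure D1:**
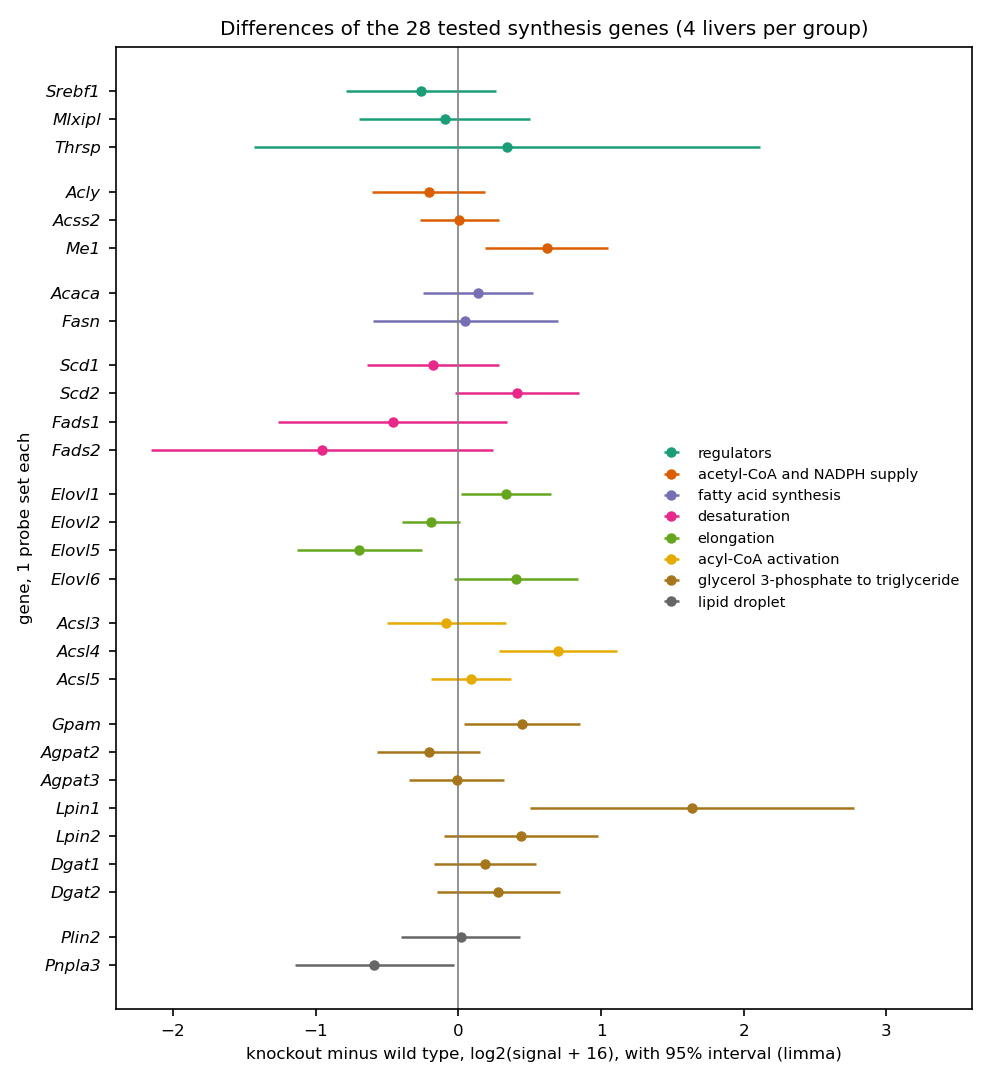
Difference between knockout and wild type for the 28 tested genes, in log2(signal + 16), with the 95% interval from limma over 4 livers per group; colours mark the step of the pathway. Lpin1 stands farthest above 0 at 1.64 and Fads2 farthest below at -0.96, and the intervals of 7 genes leave out 0.

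The steps that start from glycerol 3-phosphate held the largest difference. Lpin1, the lipin that turns phosphatidic acid into diacylglycerol and also acts as a transcriptional coactivator, had a signal of 1768, 1200, 943 and 1118 on wild type 1 to 4. On knockout 1 to 4 it was 9718, 5122, 3753 and 1155. Thus 3 knockout arrays lay above every wild-type array and knockout 4 lay among them. The means were 1257 ± 357 and 4937 ± 3587 (SD, n = 4 each), 3.93 times as high, with a log2 difference of 1.64 ± 0.51 and an adjusted p of 0.189 (limma). A second probe set of Lpin1 gave 1.76 ± 0.48 (limma adjusted p = 0.141). Without knockout 4, the knockout array within the wild-type range, the difference was 2.21 ± 0.31 and passed (limma adjusted p = 0.0203). That fit called 211 of all probe sets higher and 123 lower, against 30 and 31 with all arrays. With any other single array left out Lpin1 was not called. Within the first array set it was 2.26 and within the second 1.01. Knockout 1 and knockout 2 were highest both in Lpin1 and in the pyruvate carboxylase ratio. On knockout 3 and knockout 4 that ratio was 2.07 and 2.06, while Lpin1 was 3753 and 1155. With that ratio as a covariate the Lpin1 difference was 1.13 ± 0.31 (limma adjusted p = 0.136). The highest ratios were both on knockout arrays, so this fit cannot fully part the ratio from genotype. The part of RNA quality in the Lpin1 difference was not tested.

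Gpam, the mitochondrial glycerol 3-phosphate acyltransferase that commits glycerol 3-phosphate to lipid, stood at 4068, 3540, 4112 and 3894 on wild type 1 to 4. Its knockout signals were 7906, 4781, 5113 and 4120. The groups did not overlap, though knockout 4 exceeded the highest wild-type array by little. The log2 difference was 0.45 ± 0.18 (limma adjusted p = 0.309), 0.25 without knockout 1, and a second probe set gave 0.38 ± 0.15. Lpin2, the lipin paralog that predominates in adult liver, had a difference of 0.44 ± 0.24 from 3 knockout arrays above the wild-type range and knockout 4 within it. Its 4 tested probe sets ran from 0.01 to 0.66.

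The acyl transfers after that of Gpam lay closer to 0 in the brightest probe sets of the Agpat and Dgat genes. Dgat2, which makes triglyceride from newly formed fatty acids in liver, had a difference of 0.28 ± 0.19, and Dgat1, the other enzyme of this last step, of 0.19 ± 0.16. Agpat2, which adds the next chain to lysophosphatidic acid, stood at -0.21 ± 0.16 with an interval of -0.57 to 0.16. Its relative Agpat3 stood at -0.01 ± 0.15, while a dimmer probe set of that gene gave 0.77 ± 0.31. Lpin3 did not reach the signal minimum, with signals from 10.8 to 142. Over the 7 tested genes of this branch the median was 0.28. All 7 had their lowest knockout signal on knockout 4, which holds for 24.8% of all probe sets, and the branch median against the wild-type mean was 0.57, 0.29, 0.19 and -0.08 on knockout 1 to 4. Within the array sets the median was 0.61 and -0.05. Marker lists of several cell types also differed between the sets: the medians were 0.37 and -0.06 for 8 hepatocyte markers, 0.44 and -0.07 for 7 macrophage markers, and, the other way, -0.60 and 0.23 for 8 erythroid markers. No marker of these lists was called (limma adjusted p under 0.05), and their part in the branch median was not tested.

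**Figure D2:**
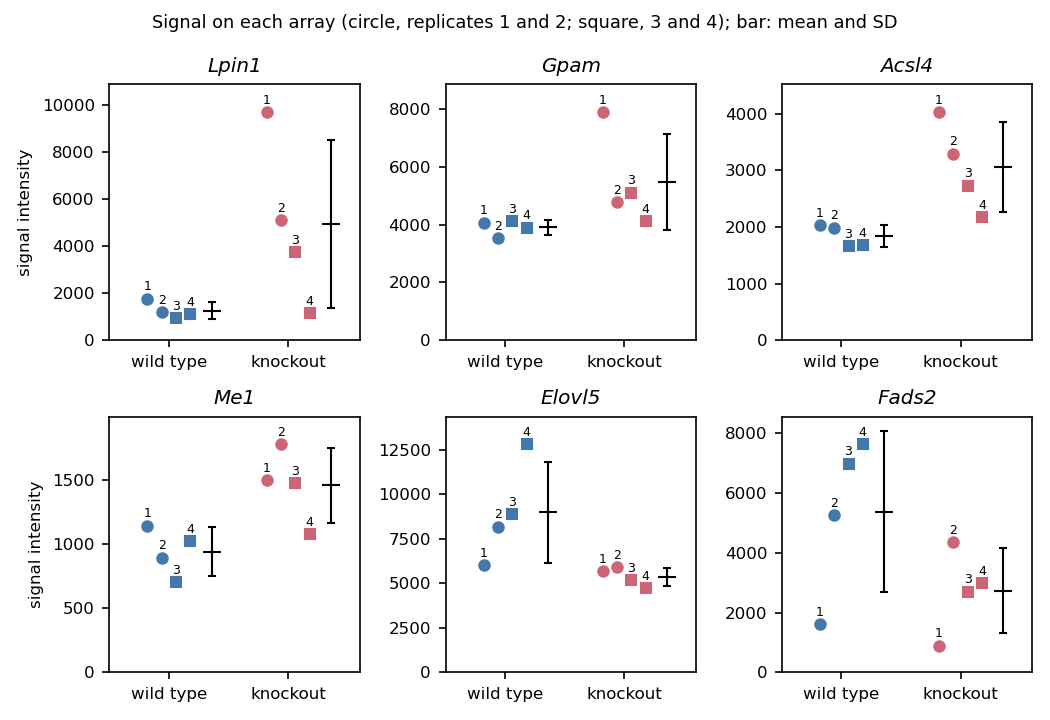
Signal intensity of 6 genes on each array, on linear axes from 0, with the replicate number at each point, circles for replicates 1 and 2 and squares for 3 and 4; the bar gives the group mean and SD. Lpin1 is at 9718 on knockout 1 and 1155 on knockout 4, while all 4 knockout arrays of Elovl5 lie under the lowest wild-type array.

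Elongation and desaturation went both ways. Elovl5, which elongates polyunsaturated fatty acids, stood at 6029, 8190, 8892 and 12820 on wild type 1 to 4 and at 5668, 5906, 5166 and 4736 on knockout 1 to 4. Every knockout array was below every wild-type array, with wild type 4 the highest of all. The means were 8983 ± 2834 and 5369 ± 523 (SD, n = 4 each), 0.598 times as high in the knockout, with a log2 difference of -0.69 ± 0.20 (limma adjusted p = 0.155) and of -0.80 ± 0.17 from a second probe set (limma adjusted p = 0.0862). Leaving out the array labelled wild type 4 gave -0.51 ± 0.16. The difference was -0.28 in the first array set and -1.11 in the second.

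Fads2, the delta-6 desaturase that starts the synthesis of long polyunsaturated fatty acids, spread widely within both groups. It stood at 1612, 5261, 6976 and 7629 on wild type 1 to 4 and at 896, 4348, 2698 and 2984 on knockout 1 to 4. Wild type 1 and knockout 1 were the lowest of their groups, and the groups overlapped. The log2 difference was -0.96 ± 0.54 (limma adjusted p = 0.452), -1.46 without wild type 1 and -0.49 without knockout 1. In the second array set alone it was -1.36 ± 0.12 (limma adjusted p = 0.0626). Fads1, the delta-5 desaturase of the same route, had a difference of -0.46 ± 0.36, with 0.07 in the first set and -0.99 in the second, and a dimmer probe set at -0.54 ± 0.21. Elovl2, which takes these chains further, varied little within the groups: every knockout array, at 8701 to 9605, was under every wild-type array, at 9923 to 10919, with a difference of -0.19 ± 0.09. These 4 genes of the polyunsaturated route, grouped after their values were seen, all lay below 0 and none was called.

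The enzymes of saturated and monounsaturated chains lay on both sides of 0, with Elovl1, Elovl6 and Scd2 above and Scd1 below. Elovl1, which elongates very long saturated chains, stood at 2167, 2411, 2313 and 1806 on wild type 1 to 4, and at 2354, 2683, 2811 and 3147 on knockout 1 to 4. Only knockout 1 lay within the wild-type range. Its log2 difference was 0.34 ± 0.14 (limma adjusted p = 0.319), and both of its other tested probe sets, at 0.49 ± 0.12 and 0.39 ± 0.14, had groups that did not overlap. Elovl6, which takes palmitate to stearate, had 0.40 ± 0.20, with 0.79 in the first array set and 0.01 in the second. Scd2, a stearoyl-CoA desaturase prominent in newborn liver, stood at 1222, 1988, 2274 and 1577 on wild type 1 to 4, and at 1937, 2674, 2223 and 2394 on knockout 1 to 4. Those groups overlapped, and the difference was 0.41 ± 0.20, though the dimmest of its 3 tested probe sets gave -0.12. Scd1, the main stearoyl-CoA desaturase of adult liver, was at -0.18 ± 0.21.

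A promoter window each of Lpin1 and Elovl5 is shown because Lpin1 had the largest difference and Elovl5 the smallest p among those below 0. The windows run from 250 bases before to 50 bases after an annotated start (RefSeq, GRCm38.p6), 5′ to 3′ on the gene's strand. Capitals mark motif matches on either strand. They are Lpin1 at chr12:16610917-16611216 on the minus strand and Elovl5 at chr9:77917115-77917414 on the plus strand. The Lpin1 window lies inside the annotated span of the gene (16535669 to 16653903), at an internal start and not at the gene's 5′ end.
Lpin1: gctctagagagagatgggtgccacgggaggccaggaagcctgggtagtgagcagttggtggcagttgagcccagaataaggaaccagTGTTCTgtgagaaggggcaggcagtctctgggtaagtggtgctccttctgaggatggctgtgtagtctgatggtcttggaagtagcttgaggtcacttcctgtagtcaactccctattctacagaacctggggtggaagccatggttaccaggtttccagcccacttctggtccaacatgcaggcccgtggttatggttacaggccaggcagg
Elovl5: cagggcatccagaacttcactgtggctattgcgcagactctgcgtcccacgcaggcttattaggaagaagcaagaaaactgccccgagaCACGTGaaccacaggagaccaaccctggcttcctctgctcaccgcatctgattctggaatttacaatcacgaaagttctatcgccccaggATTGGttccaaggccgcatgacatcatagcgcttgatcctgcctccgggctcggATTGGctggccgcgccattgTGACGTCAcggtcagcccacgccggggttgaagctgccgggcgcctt
Capitals in Lpin1 are 1 glucocorticoid receptor hexamer, AGAACA read on the other strand, which starts at -163 from that internal start. In Elovl5 they are 1 E-box, CACGTG, at -161, the CCAAT box read on the other strand at -71 and -17, and 1 cyclic AMP response element, TGACGTCA, at 3. None of these overlap. Among 32851 promoter windows of this length the hexamer was found in 19.0%, the E-box in 7.15%, CCAAT in 37.4% and the cyclic AMP element in 1.79%. The sterol element TCACNCCAC, the kind of site read by SREBP factors, was in 1.24% of all windows. Windows, 40 in all, were found for 28 of the 33 genes. Of these 40 windows 2 held the sterol element (Acsl1 and Mlxipl). CCAAT was in 19 of the 40, which belong to 18 genes. The hexamer was in 6 of the 40, the E-box in 5 and the cyclic AMP element in 2. A match is a description of letters, not of binding.

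Acyl-CoA synthetases differed from each other. Acsl4, which prefers arachidonic acid, had the smallest p of all 28 genes. It stood at 2032, 1988, 1663 and 1680 on wild type 1 to 4 and at 4031, 3294, 2731 and 2176 on knockout 1 to 4, so the groups did not overlap. The means were 1841 ± 197 and 3058 ± 793 (SD, n = 4 each), 1.66 times as high, with a log2 difference of 0.70 ± 0.19 (limma adjusted p = 0.133). The 2 other tested probe sets gave 0.87 ± 0.21 and 0.39 ± 0.16. With the array set as a block Acsl4 was the 1 gene of the 28 that was called (limma adjusted p = 0.0483), where 0.505% of all probe sets were called higher and 0.397% lower. It was not called with that block once the array labelled wild type 4 was left out (0.73 ± 0.15; limma adjusted p = 0.0679). Acsl4 lies on the X chromosome and that array has female signal, and the part of sex was not tested. Without the block Acsl4 was called when knockout 4 was left out (limma adjusted p = 0.0455). That fit called 211 of all probe sets higher and 123 lower, against 30 and 31 with all arrays. The difference was 0.85 in the first set and 0.54 in the second.

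Acsl5, a synthetase of liver and intestine, was at 8544, 9062, 8628 and 9025 on wild type 1 to 4, and at 11618, 9926, 8112 and 8245 on knockout 1 to 4. Here knockout 1 and 2 were above, and knockout 3 and 4 below, every wild-type array. Its difference was 0.09 ± 0.13, with 0.29 in the first array set and -0.11 in the second. Acsl3, the synthetase of nascent lipid droplets, stood at -0.08 ± 0.19.

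The core of fatty acid synthesis showed no difference beyond the spread between livers. Fasn, the synthase that builds palmitate, stood at 573, 1293, 1193 and 1028 on wild type 1 to 4 and at 629, 1452, 1102 and 1044 on knockout 1 to 4. Replicate 1 was the lowest of both groups. Its log2 difference was 0.05 ± 0.29 with an interval of -0.60 to 0.70 (limma adjusted p = 0.958). Acaca, the acetyl-CoA carboxylase of the cytosol, was at 836, 599, 560 and 504 on wild type 1 to 4, and at 754, 722, 672 and 572 on knockout 1 to 4. That is a difference of 0.14 ± 0.17 (interval -0.25 to 0.52). Acacb, the carboxylase at the mitochondrial surface, did not reach the signal minimum, with signals from 3.7 to 89.2.

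Among the enzymes that supply acetyl-CoA and NADPH, Me1 stood apart. Me1, the cytosolic malic enzyme that yields NADPH, was at 1146, 896, 705 and 1025 on wild type 1 to 4 and at 1502, 1781, 1476 and 1077 on knockout 1 to 4. Knockout 4 lay within the wild-type range and the other 3 above it. The means were 943 ± 189 and 1459 ± 290 (SD, n = 4 each), 1.55 times as high, with a log2 difference of 0.62 ± 0.19 (limma adjusted p = 0.189) that was 0.68 in the first array set and 0.56 in the second. A dimmer probe set of Me1 gave 1.90 ± 0.49 (limma adjusted p = 0.118), so the size depends on the probe set. Acly, which splits citrate into acetyl-CoA, was at 3088, 4524, 4096 and 3945 on wild type 1 to 4, and at 2446, 3483, 3665 and 4048 on knockout 1 to 4. Its difference was -0.21 ± 0.18, and all 3 of its tested probe sets lay below 0. Acss2, which makes acetyl-CoA from acetate, stood at 0.01 ± 0.13, with an interval of -0.27 to 0.28.

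Transcripts of the regulators did not separate the groups. Srebf1, which encodes the sterol-regulated activator SREBP-1 of these enzymes, was at 1195, 1982, 2763 and 1581 on wild type 1 to 4, and at 1197, 1801, 1503 and 1547 on knockout 1 to 4. The difference was -0.26 ± 0.24 (interval -0.79 to 0.27). Mlxipl, which encodes the glucose-responsive activator ChREBP, stood at -0.10 ± 0.27. Thrsp, a small protein of lipogenic tissues whose transcript responds to thyroid hormone and feeding, was at 248, 207, 53.7 and 9.3 on wild type 1 to 4 and at 219, 206, 107 and 25.7 on knockout 1 to 4. Its brightest probe set sorted by array set rather than by genotype, with replicates 1 and 2 of both groups above replicates 3 and 4. The difference between the sets (second minus first) was -2.10. In dimmer probe sets of Thrsp, which did not reach the signal minimum, it was 1.33 and 0.14. The genotype difference of the brightest probe set was 0.34 ± 0.80, and Thrsp was the 1 tested gene of the 28 under a signal of 200 on some arrays.

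Lipid droplet genes split as well. Pnpla3, a droplet lipase and acyltransferase that SREBP-1 is known to induce, was at 559, 698, 527 and 375 on wild type 1 to 4 and at 478, 446, 268 and 248 on knockout 1 to 4. Knockout 3 and 4 were below every wild-type array. The log2 difference was -0.59 ± 0.25 (limma adjusted p = 0.325), and -0.81 ± 0.18 with the pyruvate carboxylase ratio as a covariate (limma adjusted p = 0.0844). Plin2, the main droplet coat protein of liver, was at 10027, 10870, 11937 and 13189 on wild type 1 to 4, and at 16405, 13170, 8811 and 9454 on knockout 1 to 4. It lay higher in the knockout within the first array set (0.49) and lower within the second (-0.46), for 0.02 ± 0.19 over all 8 arrays. Cidec, which fuses droplets and is low in lean liver, did not reach the signal minimum. Wild type 1 to 4 read 29.8, 17.0, 22.9 and 18.3 for it, and knockout 1 to 4 read 130, 109, 43.2 and 54.8, without overlap. With no minimum its difference was 1.31 ± 0.34 (limma adjusted p = 0.219), in a fit that called 0.0466% of all probe sets. Mogat1, of the monoacylglycerol route, stood at 77.3, 109, 83.1 and 173 on wild type 1 to 4, and at 24.3, 19.5, 105 and 74.4 on knockout 1 to 4. It too missed the minimum, and without one it gave -0.95 ± 0.44 (limma adjusted p = 0.554).

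**Figure D3:**
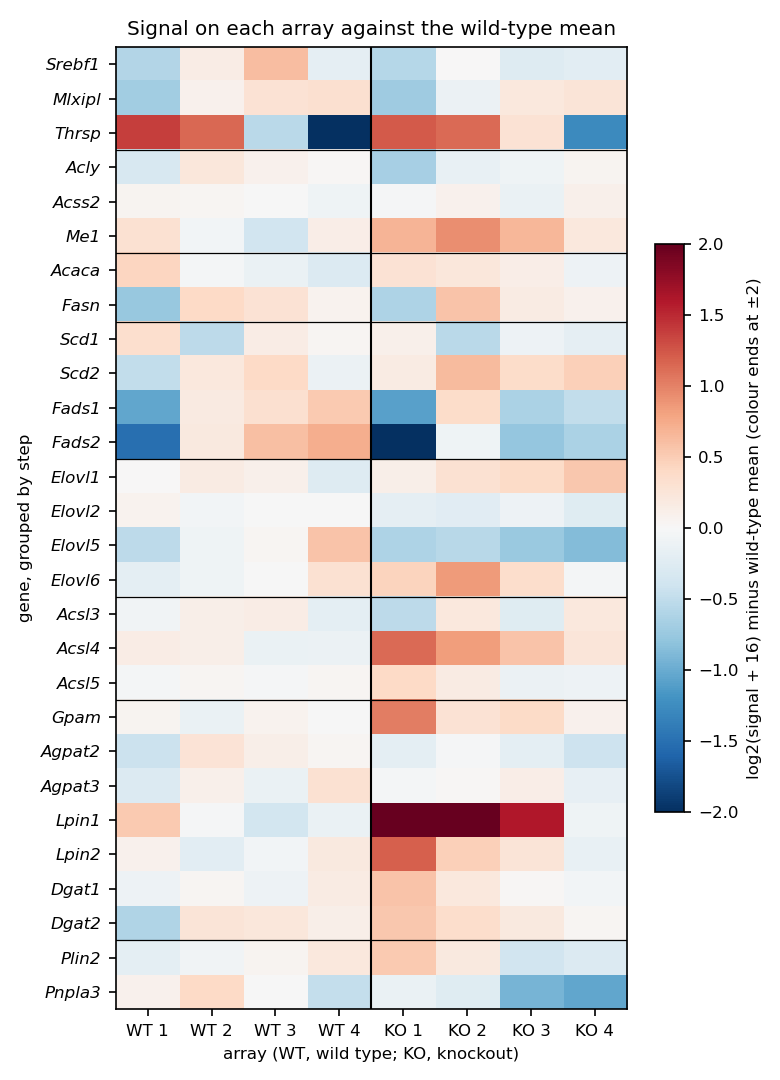
Signal of the 28 tested genes on each array as log2(signal + 16) minus the gene's wild-type mean, grouped by step; colours end at ±2. The dark cells of Lpin1 on knockout 1 and 2 have no counterpart on knockout 4. The probe set shown for Thrsp is high on replicates 1 and 2 of both groups.

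The knockout arrays were not alike for these genes. Knockout 1 was the highest of the 4 for 12 of the 28 and knockout 4 the lowest for 15, against 30.3% and 24.8% of all probe sets. The reverse, knockout 4 highest or knockout 1 lowest, held for 4 and 9 of the 28, against 30.0% and 36.6%. The difference between knockout and wild type had the same sign in both array sets for 17 of the 28, where 58.3% of all probe sets did so. The sets were also compared directly, by the interaction of genotype and array set. None of the 28 was called (limma adjusted p under 0.05, which took 0.00981% of all probe sets), and 4 had an unadjusted p under 0.05, which 9.92% of all probe sets had. They are Plin2 (second minus first set -0.95 ± 0.21), Elovl5 (-0.83 ± 0.30), Lpin2 (-0.93 ± 0.36) and Elovl6 (-0.78 ± 0.31), with limma adjusted p of 0.484 for Plin2 and 0.490 for the rest.

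**Figure D4:**
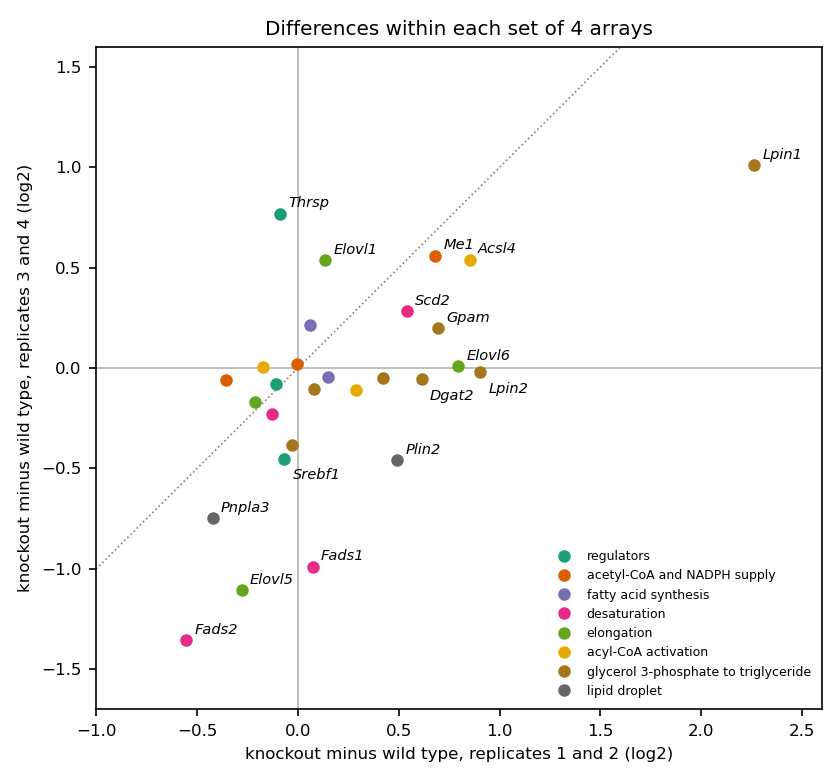
Difference between knockout and wild type (log2) of the 28 tested genes within replicates 1 and 2 (horizontal) and within replicates 3 and 4 (vertical), with 2 arrays per group in each; the dotted line marks equal values. Me1 and Acsl4 lie near the line, Lpin1 is at 2.26 and 1.01, and Plin2 at 0.49 and -0.46.

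Other genes of the pathway, 68 on the list, were measured in the same fit, and 53 of them were tested. The list was chosen with earlier results of these data known, so the shares over all probe sets are given for description only. Of these 0 were called higher and 2 lower, where 0.147% and 0.152% of all probe sets were. With the array set as a block 1 was called higher (Hacd2, below) and the same 2 lower, against 0.505% and 0.397% of all probe sets. Gpd2, the mitochondrial dehydrogenase that oxidises glycerol 3-phosphate, fell from 1806 ± 740 to 497 ± 127 (SD, n = 4 each; log2 difference -1.77 ± 0.31; limma adjusted p = 0.0488). G0s2, a small inhibitor of triglyceride lipolysis, fell from 3850 ± 463 to 1826 ± 397 (-1.09 ± 0.17; limma adjusted p = 0.0419). For both, all 4 knockout arrays lay below all 4 wild-type arrays. Leaving out 1 array ended most of these calls: G0s2 remained called without knockout 4 only (limma adjusted p up to 0.162 when another array was left out) and Gpd2 without wild type 1 or knockout 4 only (up to 0.173). Before adjustment, 8 of the 53 had a p under 0.05 in the higher direction and 4 in the lower. Among all probe sets 7.12% and 7.32% did. The median of the 53 was 0.10, with 35 above 0, and that of all probe sets -0.03, with 45.8% above 0.

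Several of these stand next to the genes above in the pathway. Pnpla2, the triglyceride lipase that G0s2 restrains, had a difference of 1.10 ± 0.32 (limma adjusted p = 0.166). Mogat2, a monoacylglycerol acyltransferase related to Mogat1, was at 654, 707, 821 and 572 on wild type 1 to 4, and at 228, 424, 327 and 504 on knockout 1 to 4. Those groups did not overlap, with a difference of -0.91 ± 0.23 (limma adjusted p = 0.115). Hacd2, the dehydratase of very long chain elongation, stood between 5324 and 5493 in wild type and between 7244 and 9442 in the knockout (0.59 ± 0.11; limma adjusted p = 0.0632). With the array set as a block its adjusted p was 0.0414 (limma), and 0.0620 when the array labelled wild type 4 was left out as well. Fads6, a member of the fatty acid desaturase family, had 0.75 ± 0.19, again with groups apart. Of the 53 genes, the groups did not overlap for 5 that were higher in the knockout, Slc27a5 and Mlx among them, and 3 that were lower. Among all probe sets 4.47% and 4.85% did so. Plpp1, which dephosphorylates phosphatidic acid outside the lipin family, had 0.50 ± 0.18, and Slc27a5, the bile acid and very long chain acyl-CoA synthetase, 0.54 ± 0.19. Of the regulators, Insig2, which retains SREBP in the endoplasmic reticulum, stood at 0.68 ± 0.25 and Mlx, the partner of ChREBP, at 0.36 ± 0.14. Pklr, the liver pyruvate kinase that ChREBP induces, had -0.63 ± 0.31, with a signal of 691 on knockout 1 and of 1703 to 2078 on the other 3 knockout arrays. Dbi, an acyl-CoA binding protein, and Acss1, the mitochondrial acetate enzyme, were at 0.17 ± 0.09 and 0.21 ± 0.15.

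The summed signals of blood-forming and hepatocyte markers overlapped between the groups. That of 8 erythroid markers ran from 45762 to 56993 in wild type and from 39286 to 60745 in the knockout, and that of 8 hepatocyte markers from 134628 to 171107 and from 155121 to 212880, with knockout 1 the highest. Single markers could still part: the groups did not overlap for Tat, a hepatocyte marker that glucocorticoids induce, at 4878 to 6673 in wild type and 8501 to 24304 in knockout (log2 difference 1.33 ± 0.26; limma adjusted p = 0.0674). Among the 45 tested markers they did not overlap for Vsig4, of macrophages, either. Of all probe sets 9.32% had groups that did not overlap. Of the 51 markers with a probe set listed for 8 cell types, 45 were tested and 0 called (limma adjusted p under 0.05). Over all probe sets 0.299% were called. At an unadjusted p under 0.05 stood 8 of the 45, against 14.4% of all probe sets. The part of cell makeup in the differences above was not tested.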

How the data were processed

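Signal intensities of 8 Mouse 430 2.0 arrays were deposited by the authors, who made them with GCOS 1.2, per the labels, with every array scaled to the same target signal, 500, using all of its probe sets; background steps beyond its defaults are not given in the sources used here. Groups were read from the sample titles, and every value column belonged to a sample of the series. Of 45101 probe sets 64 were controls; of the rest 34945 were paired with 1 gene symbol, 932 with several and 9160 with none. Values were taken as log2(signal + 16), kept at a signal of 200 or more on at least 4 arrays (20395 probe sets) and fitted with limma 3.58.1 in R 4.3.3 (lmFit, eBayes with an intensity trend, two-sided, genotype only), with Benjamini-Hochberg adjustment over all of them. The scale understates differences of dim genes. The procedure was tested on simulated data.

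Genes were read through their brightest probe set. In each step of the pathway the 2 genes with the smallest p were given array by array; of the other pathway genes, every called one and up to 2 per step were named. The genes and lists were chosen with earlier results of these data known. The labels name no batch: the array sets were read from 1 spiked-control probe set and the transferrin receptor ratio, and the other BioB probe sets do not part the arrays that way. Alternatives were other pseudocounts (1 and 64), filters, scalings, array weights, blocks, a covariate, each array set alone and leaving out each array. The labels describe single livers, and 4 arrays per group limit the precision. Same-numbered arrays did not all deviate together (correlations of 0.22, 0.40, 0.34 and 0.05), and the numbers were not taken as pairs. For knockout 1 to 3 the same-numbered wild-type array had the highest correlation, and for knockout 4 it was wild type 3 (0.37). These values do not settle whether the arrays were paired, and a fit with the replicate as a block is given below. Promoter windows came from RefSeq (GRCm38.p6).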

Additional observations from a re-analysis of the deposited data

Results flagged for a closer look

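Plin2 and Acsl5 differed between knockout and wild type in opposite directions in the 2 array sets: on replicates 1 and 2 both knockout arrays lay above both wild-type arrays, and on replicates 3 and 4 both lay below. The difference between the sets, second minus first, was -0.95 ± 0.21 for Plin2 (limma interaction, adjusted p = 0.484) and -0.40 ± 0.19 for Acsl5 (limma interaction, adjusted p = 0.522), on the log2 scale, and neither passed. For Dgat2 the array of wild type 1, at 4101, stood apart from the other 3 wild-type arrays at 6748 to 7441. On the log2(signal + 16) scale its gap to the nearest was 0.836 of the group's range, just above the critical value of 0.829 for 4 samples, which chance exceeds in about 1 of 20 groups. On the scale of the signal itself the gap was 0.792 of the range, below that value. Both groups of each of the 28 tested genes were screened by this rule, and no other was flagged on the log2 scale.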

How the results depend on the processing

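Over the alternatives, 590 values of the 28 genes kept their direction and their side of the threshold, 5 of 3 genes came to pass it and 46 of 12 genes turned sign; the causes were not tested. Of the 28, 1 was called higher with array weights and 1 with the array set as a block (Acsl4; 0 with that block and no wild type 4), 0 to 2 when 1 array was left out (2 without knockout 4, Lpin1 and Acsl4), and 1 was called lower with array weights (Elovl5). With the replicate block 0 were called higher and 0 lower. Over all probe sets 30 were called higher and 31 lower, 382 higher and 367 lower with array weights, and without knockout 4 211 higher and 123 lower. The 2 calls among the other pathway genes became 1 with a pseudocount of 1, with the replicate block (Gpd2 kept, limma adjusted p = 0.0196; G0s2 lost, 0.0537), with the array set as a block and no wild type 4, and with the pyruvate carboxylase covariate. They became 3 with the array set as a block, which added Hacd2. They became 0 with no filter, with no intensity trend and in either array set alone, 5 with array weights, and 0 to 5 when 1 array was left out. The median of the glycerol 3-phosphate branch was 0.053 with array weights, 0.61 in the first array set and -0.049 in the second. That of elongation was -0.039 and -0.080 in the sets, that of activation 0.29 in the first, and that of supply 0.077 as the mean over probe sets. The pyruvate carboxylase covariate turned the sign to 0.15 for Mlxipl, -0.27 for Thrsp, -0.0088 for Acss2, -0.011 for Acsl5, 0.017 for Agpat3 and -0.14 for Plin2. Quantile scaling turned it to -0.019 for Acsl5 and -0.12 for Plin2. Median centring turned it to 0.022 for Agpat3. The mean over probe sets turned it to 0.31 for Agpat3. Array weights turned it to -0.029 for Acss2, -0.026 for Fasn, -0.049 for Acsl5 and -0.26 for Plin2. The set block without wild type 4 turned it to -0.038 for Thrsp, -0.010 for Acss2 and 0.095 for Agpat3. The first set alone turned it to -0.089 for Thrsp, -0.0072 for Acss2, 0.072 for Fads1 and 0.080 for Agpat3. The second set alone turned it to -0.046 for Fasn, 0.0074 for Acsl3, -0.11 for Acsl5, -0.021 for Lpin2, -0.049 for Dgat1, -0.054 for Dgat2 and -0.46 for Plin2. Leaving out 1 array in turn gave values from -0.33 to 0.11 for Mlxipl, -0.33 to 0.88 for Thrsp, -0.023 to 0.056 for Acss2, -0.20 to 0.28 for Fasn, -0.18 to 0.062 for Acsl3, -0.014 to 0.16 for Acsl5, -0.10 to 0.091 for Agpat3 and -0.15 to 0.15 for Plin2.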
